A study of Homo sapiens with 10 samples.

Results

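The genes described here are the cyclins that drive cells through the G1 phase (*CCND1*, *CCND2*, *CCND3*, *CCNE1* and *CCNE2*), the kinases they bind (*CDK4*, *CDK6* and *CDK2*) and the phosphatase *CDC25A*. They were taken by name, as the rows of the count table whose Ensembl identifier belongs to 1 of these 9 symbols, out of 61587 rows in all, and all 9 passed the minimum of 200 counts over the 10 samples. Bulk RNA-seq was performed on RPTEC/TERT1 cells, a human proximal tubular epithelial line immortalised with telomerase, 7 days after 10 Gy of gamma irradiation (5 samples) or mock irradiation (5 controls). Both arms were a single line grown in the same medium, which contained epidermal growth factor, and carry the replicate numbers 1 to 5. The labels number the line from RPTEC/TERT1 up to RPTEC/TERT10, 1 per sample, where the study's text names RPTEC/TERT1 alone. Nothing states whether replicates were separate cultures, so p-values measure the spread between these samples.

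D-type cyclins are induced by mitogens and bind CDK4 or CDK6, which begin the phosphorylation of the retinoblastoma protein. E-type cyclins are made when E2F factors are released from that protein, and they bind CDK2, whose inhibitory phosphates CDC25A removes, so that cells enter S phase. In senescent cells this route is held by CDK inhibitors such as p21 and p16, and high cyclin D1 has long been described in such arrested cells.

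Counts on genes summed to 78081911 to 131555873 in controls and to 66269311 to 101594948 in irradiated samples. Expression is given as CPM, counts divided by the scaled library size (TMM) in units of 1000000 counts. Among tubular markers 13 of 16 reached 200 counts, their summed level being 2654 to 3205 CPM in controls and 2844 to 3884 after irradiation, whereas *HNF4A*, *LRP2* and *SLC34A1*, which define the differentiated proximal tubule, stayed under that limit. Markers of other cell types reached it for 2 of 7 fibroblast genes (summed level 15.9 to 23.5 CPM in controls, 28.6 to 40.1 after irradiation), 3 of 5 endothelial genes (1.32 to 2.45 and 4.18 to 6.09) and 2 of 6 leucocyte genes (0.286 to 0.685 and 1.21 to 2.09). No listed marker was at 0 in all samples, and the part of these markers in the results was not tested. Control replicates 1 and 3 stood apart from the other controls in the mean level of 12 replication licensing genes, at 3.94 and 3.84 log2 CPM against 5.09 to 5.20, and lay close to the irradiated samples, at 3.43 to 3.81. In the mean of 6 cyclin and CDK genes of S and M phase they were again the lowest controls (2.86 and 2.77 against 3.99 to 4.10) but above all irradiated samples (1.98 to 2.11). In bulk samples, fewer cells of a type (here, cells in a phase of the cycle) and less RNA per cell cannot be told apart.

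Promoters are shown because *CDK4* and *CDK6* moved in opposite directions and because *CCNE1* and *CDC25A*, both known targets of E2F factors, differed in whether they passed the test. Stretches of 250 bases before the transcription start (RefSeq, GRCh38.p14) were matched for 5 of the 9 genes, *CDC25A*, *CCND3*, *CDK4*, *CDK6* and *CCNE1*, with 8 entries in all. *CCND1*, *CCND2*, *CCNE2* and *CDK2* were not analysed in this way. The 4 shown are those of *CDC25A* (chr3:48188418-48188667, minus strand), *CCNE1* (chr19:29811741-29811990, plus strand), *CDK4* (chr12:57752311-57752560, minus strand) and *CDK6* at its outermost start (chr7:92836574-92836823, minus strand), written 5′ to 3′ along the gene, with capitals marking matches to an E2F site or a GC box on either strand.
CDC25A: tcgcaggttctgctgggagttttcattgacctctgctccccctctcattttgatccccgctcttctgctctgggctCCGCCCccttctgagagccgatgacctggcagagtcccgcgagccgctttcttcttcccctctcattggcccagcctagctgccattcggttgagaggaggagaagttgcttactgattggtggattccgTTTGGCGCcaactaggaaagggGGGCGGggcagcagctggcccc
CCNE1: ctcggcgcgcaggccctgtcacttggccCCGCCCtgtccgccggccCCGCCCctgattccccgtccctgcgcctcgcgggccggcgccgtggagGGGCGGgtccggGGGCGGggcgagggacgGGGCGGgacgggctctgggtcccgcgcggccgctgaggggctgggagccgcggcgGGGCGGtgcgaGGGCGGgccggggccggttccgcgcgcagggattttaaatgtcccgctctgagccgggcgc
CDK4: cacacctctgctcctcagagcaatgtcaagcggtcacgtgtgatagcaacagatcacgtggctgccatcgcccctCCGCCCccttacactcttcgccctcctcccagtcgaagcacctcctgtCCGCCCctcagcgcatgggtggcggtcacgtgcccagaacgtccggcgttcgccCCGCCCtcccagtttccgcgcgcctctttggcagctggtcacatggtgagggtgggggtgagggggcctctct
CDK6: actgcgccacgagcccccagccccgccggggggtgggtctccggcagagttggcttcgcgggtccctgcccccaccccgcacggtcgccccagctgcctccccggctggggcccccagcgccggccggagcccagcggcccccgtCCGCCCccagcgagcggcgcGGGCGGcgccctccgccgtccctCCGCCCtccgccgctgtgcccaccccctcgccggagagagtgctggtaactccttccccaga

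An E2F site, searched as TTTCCCGC, TTTCGCGC, TTTGCCGC or TTTGGCGC, was found in *CDC25A* alone among these 5 genes, as TTTGGCGC starting 44 bases before the start, and did not overlap either GC box. Such a site lies in 2.79% of 35116 promoter stretches of this length. The GC box, GGGCGG, was added to the search after the sequences had been seen, and 42.6% of all promoter stretches hold at least 1. It occurred 7 times in *CCNE1*, 3 times in *CDK4*, 3 times at the outermost start of *CDK6* and 2 times in *CDC25A*. At the other start of *CDK6* it occurred 0 times, and at the starts of *CCND3* 5, 2 and 0 times. Neither the CHR element TTTGAA (13.3% of stretches) nor the AP-1 sites TGACTCA and TGAGTCA (4.20%) occurred in any of the 8 entries. These are matches of letters within 250 bases and say nothing about binding.

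Irradiated RPTECs had more *CCND1*, *CCND2* and *CDK6* transcript and less *CDC25A*, *CCNE2*, *CDK2* and *CDK4* than controls, while the differences of *CCND3* and *CCNE1* did not pass the test. The comparison asks how the transcripts of the G1 engine stood in cells made senescent by irradiation. It rests on edgeR's quasi-likelihood fit of all 19006 genes tested, with the replicate number as a block and p-values adjusted over all of them, and a gene was called at an adjusted p under 0.05. Of the 9 genes 3 were called higher, where 23.9% of all genes were, and 4 lower, where 22.7% were. Of the 8857 genes called, 51.4% were higher, or 38.0% of 9503 when libraries were scaled by size only. All 3 rises were more than 2-fold and none of the 4 falls was, and no share of all genes is given at that cut. Irradiated samples lay wholly above controls for 3 of the genes (14.6% of all genes) and wholly below for 2 (12.0%). The median log2 fold change of the 9 was -0.35, beside -0.01 over all genes tested.

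**Figure D1:**
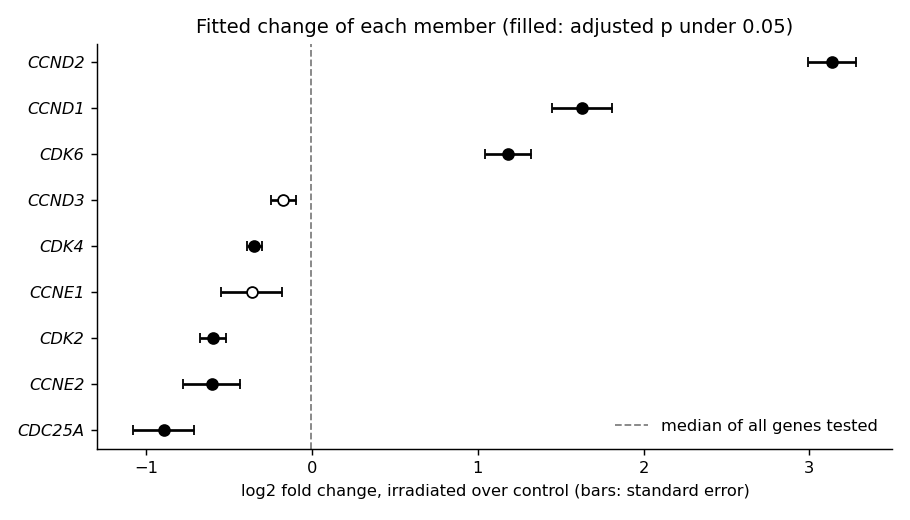
Fitted log2 fold change (irradiated over control, x axis) of each of the 9 genes with its standard error as a bar; filled points passed an adjusted p of 0.05 and the dashed line is the median of all genes tested. *CCND2*, *CCND1* and *CDK6* lie above 1 and the other 6 below 0, with *CCND3* and *CCNE1* open.

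The D-type cyclins moved unequally. *CCND1*, which encodes cyclin D1 (chromosome 11, 69641156 to 69654474, plus strand), stood at 482.0, 620.0, 448.1, 697.7 and 641.6 CPM in control replicates 1 to 5 and at 1944, 1187, 2183, 1871 and 1797 CPM in the irradiated ones. The groups did not overlap, although irradiated replicate 2 was well below the other irradiated samples. The fit gave a rise of 1.63 ± 0.18 (log2 ± SE, edgeR, adjusted p = 0.000344), or 3.09-fold, which was present in 5 of 5 pairs. *CCND1* was already abundant, and per length it ranked 185 among all genes in controls and 54 after irradiation.

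*CCND2*, encoding cyclin D2 (chromosome 12, 4269771 to 4305353, plus strand), showed the largest fitted change of the 9 genes from a very low level. Control replicates 1 to 5 held 1.11, 0.479, 1.32, 0.947 and 0.731 CPM, and irradiated replicates 9.28, 4.15, 16.9, 8.14 and 4.67. Irradiated replicate 3 was the highest by a wide margin and its control was also the highest control, so that the change within pairs was less spread than the levels. *CCND2* rose by 3.14 ± 0.15 (log2 ± SE, edgeR, adjusted p = 1.51e-05), or 8.79-fold, in 5 of 5 pairs, rank 92 from the top of all genes tested. Counts on *CCND2* ran from 67 to 1564 per sample, and its antisense gene *CCND2-AS1* also rose, from 0.157 ± 0.091 to 0.673 ± 0.270 CPM (SD, n = 5 each). Counting here did not use strand, and reads of the pair cannot be told apart there. Exons of other genes cover 13.8% of the exon length of *CCND2*, those on the opposite strand 3.36%.

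*CCND3*, encoding cyclin D3 (chromosome 6, 41934934 to 42050357, minus strand), held 221.0, 205.8, 234.2, 235.7 and 224.1 CPM in control replicates 1 to 5 and 223.4, 183.1, 238.2, 178.0 and 177.8 in irradiated ones. Irradiated replicates 1 and 3 lay at or just above their controls and the other 3 below theirs. Its difference, -0.17 ± 0.07 (log2 ± SE, edgeR, adjusted p = 0.0889), did not pass, although it did without replicate 3. The difference between the D-type cyclins was tested as the ratio of 2 transcripts within a sample, which is free of scaling between samples. The log2 ratio of *CCND3* to *CCND1* changed by -1.80 (exact permutation test, 2-sided, p = 0.00794, adjusted p = 0.0159 over 8 ratios) and that of *CCND3* to *CCND2* by -3.29 (the same p-values), each lower in 5 of 5 pairs. *CCND2* rose against *CCND1* by 1.49 (exact permutation p = 0.0159, adjusted p = 0.0212), also in 5 of 5 pairs.

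**Figure D2:**
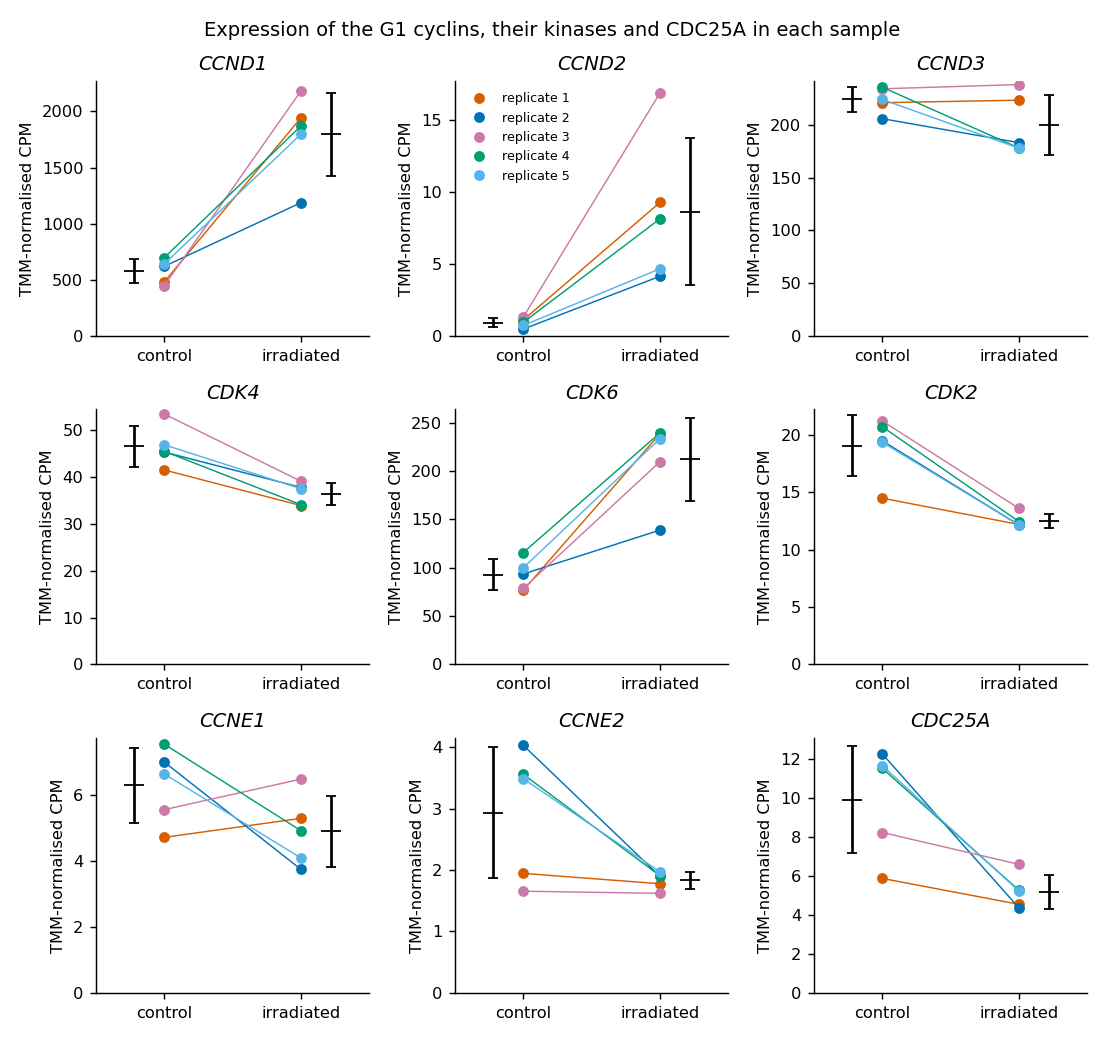
TMM-normalised CPM (y axis, from 0) of the 9 genes in each sample; lines join samples with the same replicate number and black bars give the mean and SD of 5 samples. *CCND1*, *CCND2* and *CDK6* rise along all 5 lines, *CDK4* and *CDK2* fall along all 5, and *CCNE1*, *CCNE2* and *CDC25A* fall steeply in replicates 2, 4 and 5 only.

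Per length, as TPM (counts over merged GENCODE exon length, scaled to 1000000 in each sample), *CCND1* made up 75.3 ± 3.9% of D-type cyclin transcripts in controls and 91.2 ± 1.6% after irradiation (SD, n = 5 each). *CCND3* made up 24.7 ± 3.9% and 8.60 ± 1.60%, and *CCND2* 0.0748 ± 0.0353% and 0.250 ± 0.106%. Despite its larger fold change, *CCND2* thus remained the smallest D-type cyclin in both groups. With the longest transcript as the length, the share of *CCND1* was 58.9% in controls and 83.0% after irradiation, higher after irradiation on either measure.

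Of the kinases that D-type cyclins bind, *CDK6* rose and *CDK4* fell. *CDK6* (chromosome 7, 92604921 to 92836573, minus strand) stood at 76.8, 93.6, 78.6, 115.8 and 100.02 CPM in control replicates 1 to 5 and at 238.7, 139.0, 209.8, 239.6 and 233.6 in irradiated ones. All irradiated samples were above all controls, and irradiated replicate 2 was again the lowest of its group, as for *CCND1*. *CDK6* rose by 1.18 ± 0.14 (log2 ± SE, edgeR, adjusted p = 0.000408), or 2.27-fold, in 5 of 5 pairs.

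*CDK4* (chromosome 12, 57747727 to 57756013, minus strand) stood at 41.5, 45.3, 53.4, 45.5 and 46.9 CPM in controls and at 33.9, 37.8, 39.1, 34.1 and 37.5 in irradiated samples. The shift was small but the groups did not overlap, and the log2 difference within pairs ran from -0.45 to -0.26. The fitted change of -0.35 ± 0.05 (log2 ± SE, edgeR, adjusted p = 0.00067) left 78.5% of the control level. Exons of the opposite-strand gene *TSPAN31* cover 44.2% of the exon length of *CDK4*, where reads are left out of the counts, so its level is too low. *TSPAN31* itself was slightly higher after irradiation, by 0.17 ± 0.04 (log2 ± SE, edgeR, adjusted p = 0.0155).

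The ratio of *CDK6* to *CDK4* rose by 1.53 on the log2 scale (exact permutation p = 0.00794, adjusted p = 0.0159), in 5 of 5 pairs. Per length, *CDK6* made up 33.5 ± 4.4% of the transcripts of both kinases in controls and 59.0 ± 6.6% after irradiation (SD, n = 5 each). With the longest transcript as the length these shares were 24.2% and 47.8%. With the exon length free of other genes, added after the data had been seen because of the overlap of *CDK4*, they were 22.1% and 44.9%, so that the share rose on each measure but which kinase was the larger after irradiation depended on the length used.

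*CDK2*, the partner of cyclin E (chromosome 12, 55966781 to 55972789, plus strand), fell to 66.1% of control. Control replicates 1 to 5 held 14.5, 19.5, 21.2, 20.7 and 19.4 CPM and irradiated replicates 12.2, 12.2, 13.6, 12.4 and 12.1. The irradiated samples were nearly level, and control replicate 1 was the only control near them. *CDK2* was lower in 5 of 5 pairs, with a fitted change of -0.60 ± 0.08 (log2 ± SE, edgeR, adjusted p = 0.000773). Exons of *PMEL* and other genes cover 16.8% of its exon length. *CDK4* rose against *CDK2* within samples by 0.25 on the log2 scale (exact permutation p = 0.0238, adjusted p = 0.0272), in 4 of 5 pairs, replicate 1 being the exception.

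**Figure D3:**
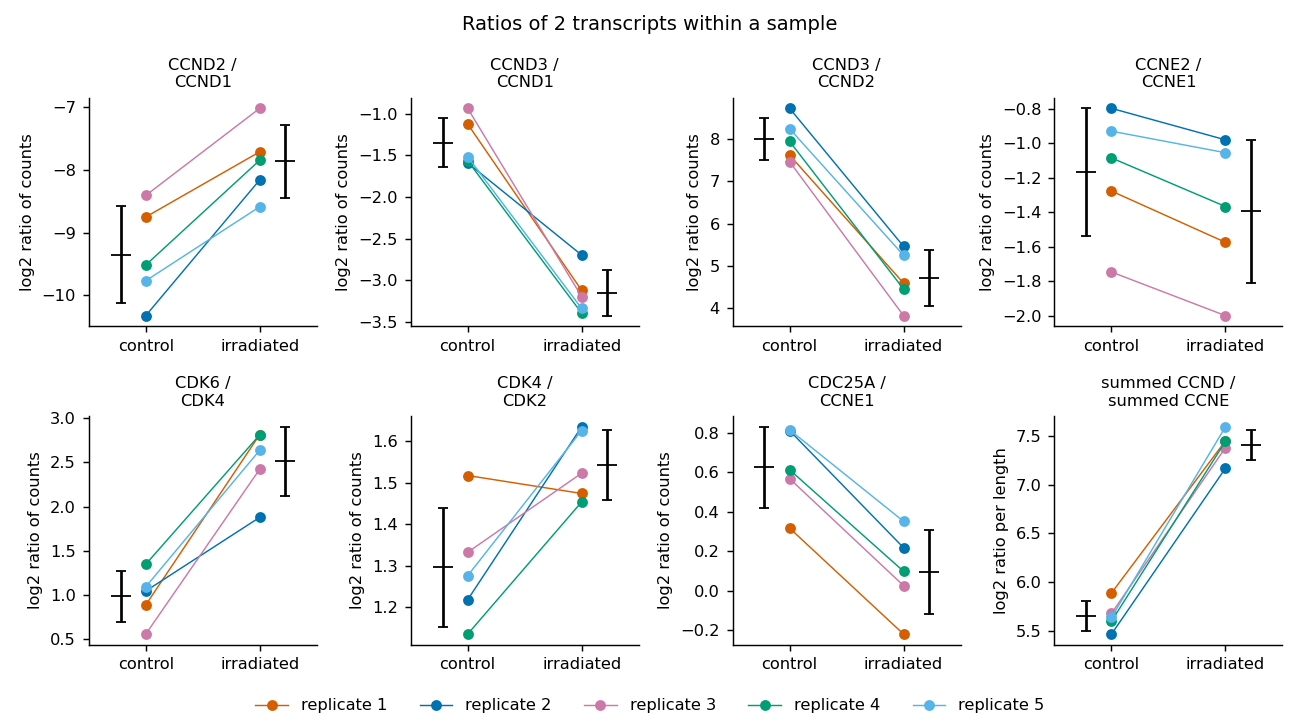
Log2 ratio of 2 transcripts within each sample (y axis: of counts, or per length for the summed cyclins), with lines joining samples of the same replicate number and bars for the mean and SD of 5 samples. The ratio of *CDK6* to *CDK4* and that of summed D-type to summed E-type cyclins rise along all 5 lines, and the ratio of *CCNE2* to *CCNE1* shifts less than it varies between replicates.

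The E-type cyclins were expressed at low levels, and *CCNE2* was lower in 5 of 5 pairs and *CCNE1* in 3 of 5. *CCNE1* (chromosome 19, 29811991 to 29824312, plus strand) stood at 4.72, 7.00, 5.56, 7.55 and 6.64 CPM in control replicates 1 to 5 and at 5.30, 3.75, 6.49, 4.92 and 4.09 in irradiated ones. It was higher than its control in irradiated replicates 1 and 3 and lower in the other 3. The fitted difference of -0.36 ± 0.18 (log2 ± SE, edgeR, adjusted p = 0.138) did not pass, although it did without replicate 3 (adjusted p = 0.0434).

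*CCNE2* held 1.94, 4.03, 1.65, 3.56 and 3.49 CPM in control replicates 1 to 5 and 1.78, 1.90, 1.62, 1.91 and 1.97 in irradiated ones. Irradiated samples were within a narrow range, and control replicates 1 and 3 lay inside or next to it. *CCNE2* was lower in 5 of 5 pairs, with a fitted change of -0.61 ± 0.17 (log2 ± SE, edgeR, adjusted p = 0.0234), or 65.7% of control. That fall no longer passed once replicate 2, 4 or 5 was left out (edgeR, adjusted p = 0.0662, 0.0863 and 0.0889). Exons of other genes on the opposite strand, chiefly *INTS8*, cover 37.1% of its exon length, where reads are left out, so its level is too low. With the exon length free of other genes it was 4.01 TPM in controls and 2.30 after irradiation, against 2.52 and 1.45 with the whole length. The ratio of *CCNE2* to *CCNE1* was lower in 5 of 5 pairs, with a mean log2 difference of -0.23, but the groups overlapped widely (exact permutation p = 0.389, adjusted p = 0.389). Within pairs it varied little (SE 0.03), and a paired sign-flip permutation test gave 0.0625, the smallest value 5 pairs allow.

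*CDC25A*, whose product removes the inhibitory phosphates of CDK2 (chromosome 3, 48157146 to 48188417, minus strand), showed the largest fall of the 9 genes, to 53.7% of control. Control replicates 1 to 5 held 5.88, 12.3, 8.24, 11.5 and 11.7 CPM and irradiated replicates 4.55, 4.36, 6.61, 5.27 and 5.22. The groups overlapped, as control replicate 1 was below irradiated replicate 3. *CDC25A* fell by 0.90 on the log2 scale (SE 0.18, edgeR, adjusted p = 0.00535), with a lower value in 5 of 5 pairs. The log2 ratio of *CDC25A* to *CCNE1* within samples changed by -0.53 and was lower in 5 of 5 pairs (exact permutation p = 0.0159, adjusted p = 0.0212).

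Summed per length, D-type cyclins exceeded E-type cyclins by 5.65 ± 0.15 on the log2 scale in controls and by 7.41 ± 0.16 after irradiation (SD, n = 5 each). The rise of 1.76 was found in 5 of 5 pairs (exact permutation p = 0.00794, adjusted p = 0.0159). The value 0.00794 is the smallest that 5 against 5 samples can give, and a paired sign-flip test of 5 pairs cannot go below 0.0625. None of the 7 ratios that passed still did without replicate 2 (adjusted p = 0.0571 to 0.098, exact permutation test) or without replicate 4 (0.0571 to 0.0653), when 4 samples face 4, although each kept its direction. Without replicate 1 the ratio of *CCND2* to *CCND1* was lost, without replicate 3 those of *CDK4* to *CDK2* and of *CDC25A* to *CCNE1*, and without replicate 5 that of *CDK4* to *CDK2*.

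Mean levels per length ran in controls from *CCND1* (455.4 TPM) over *CCND3* (144.7), *CDK4* (55.8), *CDK6* (28.4), *CDK2* (18.2), *CCNE1* (9.57), *CDC25A* (8.97) and *CCNE2* (2.52) to *CCND2* (0.422). Sample ranges of neighbours in this order were apart except those of *CCNE1* and *CDC25A*. After irradiation the order was *CCND1* (1293 TPM), *CCND3* (119.1), *CDK6* (59.8), *CDK4* (40.6), *CDK2* (11.1), *CCNE1* (6.81), *CDC25A* (4.30), *CCND2* (3.61) and *CCNE2* (1.45). The ranges of *CDK6* and *CDK4*, and of *CDC25A* and *CCND2*, overlapped. The place of *CDK6* above *CDK4* rested on the length, as it was below with the longest transcript (48.9 against 52.5 TPM) and with the exon length free of *TSPAN31* and other genes (60.2 against 72.9 TPM). *CCND2* was below *CCNE2* in controls and above it after irradiation on all 3 lengths.

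**Figure D4:**
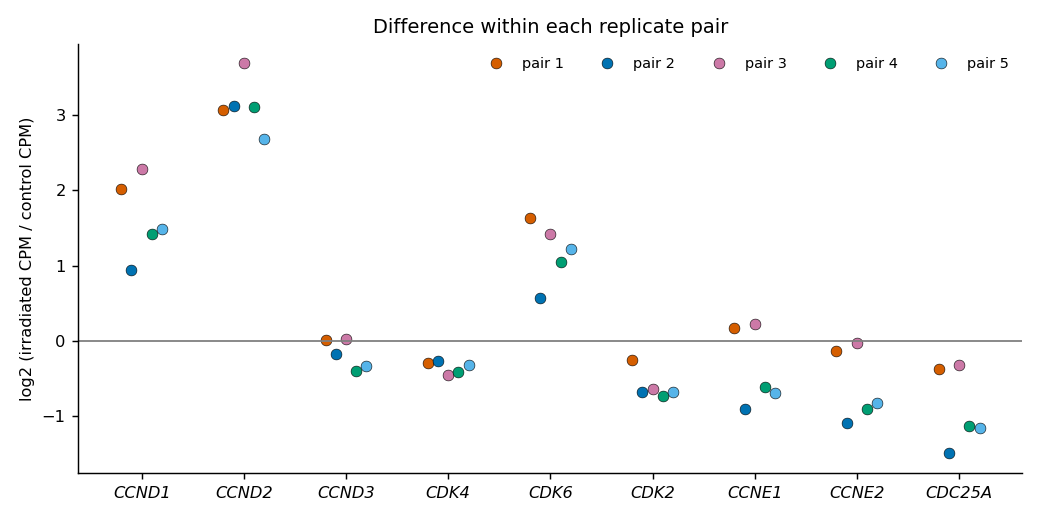
Log2 ratio of irradiated to control CPM (y axis) within each of the 5 replicate pairs for the 9 genes. Pairs 1 and 3 lie above pairs 2, 4 and 5 for *CCND1*, *CDK6*, *CCND3*, *CCNE1*, *CCNE2* and *CDC25A*, while the 5 values of *CDK4* lie between -0.45 and -0.26.

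The size of several changes went with the pair. Within pairs 1 and 3 the log2 change of *CDC25A* was -0.37 and -0.32, against -1.13 to -1.49 in the other pairs, that of *CCNE2* was -0.13 and -0.03 against -0.83 to -1.09, and that of *CCNE1* was 0.17 and 0.22 against -0.62 to -0.90. *CCND1* rose more in these pairs, by 2.01 and 2.28 against 0.94 to 1.49, and *CDK6* by 1.64 and 1.42 against 0.57 to 1.22. These are the pairs whose controls were low in replication licensing genes, and whether that accounts for the differences was not tested. When replicates 1 and 3 were left out, a choice made after the data had been seen, all 9 genes were called: 3 higher (23.0% of 17388 genes tested in that fit) and 6 lower (24.1%). *CCNE1* then had a log2 fold change of -0.75 (adjusted p = 0.000783 in edgeR), *CCND3* of -0.32 (adjusted p = 0.00373), *CCNE2* of -0.95 (adjusted p = 0.000616) and *CDC25A* of -1.27 (adjusted p = 0.000117), while that of *CCND1* was 1.27 and that of *CDK6* 0.93. The pairs left out held the smallest falls of *CCNE2* and *CDC25A* and no fall of *CCNE1* and *CCND3*. This fit therefore adds no separate support for the falls of these 4 genes.

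Genes around the G1 engine were described by role. The 97 genes of 9 lists gave 95 tested, of which 18 were higher and 40 lower. Over all genes tested 23.9% were higher and 22.7% lower, the shares against which the counts of each list stand. Of the 40 lower, 11 were replication licensing genes and 6 were cyclin and CDK genes of S and M phase. No list was tested as a set, and counts with a replicate left out stand without a share of all genes. Among 7 CDK inhibitors, which bind these kinases or their cyclin complexes, 3 were higher and 4 lower. *CDKN1A* (p21) rose from 101.9 ± 59.3 to 698.5 ± 69.0 CPM (SD, n = 5 each), while *CDKN2C* (p18) fell from 41.5 ± 9.8 to 8.29 ± 1.23 and *CDKN1C* (p57) from 99.3 ± 26.3 to 20.97 ± 6.36. The inhibitors specific to CDK4 and CDK6 were split, with *CDKN2A* (log2 fold change 0.84, adjusted p = 0.000108 in edgeR) and *CDKN2B* (1.12, adjusted p = 8.64e-05) higher and *CDKN2C* (-2.30, adjusted p = 1.08e-05) and *CDKN2D* (-0.54, adjusted p = 0.00297) lower.

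Of 13 pocket proteins and E2F genes, 4 were lower and 9 did not pass (median log2 fold change -0.06). *E2F2* (-1.90), *E2F8* (-1.85) and *RBL1* (-1.11), which encodes the pocket protein p107, had the largest falls, and *RB1* itself was at -0.06 (adjusted p = 0.233). E2F targets of replication licensing were lower for 11 of 12 genes (median -0.98), led by *CDC45* (-1.59), *ORC1* (-1.45) and *CDT1* (-1.44), although 6 were called without replicate 4 and 6 without replicate 5. All 6 later cyclins and their kinase were lower (median -1.27), with *CDK1* at -2.10, *CCNA2*, encoding cyclin A2, at -2.06 and *CCNF* at -1.32.

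Of 8 genes for the activation or phosphorylation of cyclin-dependent kinases, 2 were higher, *CDC37* (log2 fold change 0.30) and *CDK7* (0.26), and 3 lower. The falls were those of *CDC25C* (-2.14), *PKMYT1* (-1.99), an inhibitory kinase of CDK1, and *CDC25B* (-0.95). Among 13 genes for the turnover of G1 cyclins and CDC25A, 2 were higher (4 without replicate 3, and 1 without replicate 4, without replicate 5 or with library size only) and 5 lower. *FBXW7*, the ubiquitin ligase subunit that recognises cyclin E, rose (0.46), and *SKP2* (-0.48) and *CKS1B* (-0.87), which direct the destruction of p27, fell. The transcript of p27 itself, *CDKN1B*, also fell (-1.04, adjusted p = 6.36e-05 in edgeR), from 67.7 ± 4.3 to 32.9 ± 3.4 CPM (SD, n = 5 each). *FBXO4* (-0.42) and *AMBRA1* (-0.26), which have been linked to the degradation of D-type cyclins, were also lower. *FBXO31* of the same list, with such a link as well, did not pass (0.09, adjusted p = 0.247 in edgeR). On the mitogen route to cyclin D, 4 of 11 genes were higher (2 without replicate 1, 3 or 5) and 2 lower (1 without replicate 2, 3, 4 or 5), or 3 higher and 4 lower with library size only, with *FOSL1*, an AP-1 subunit, at 1.44 and *ERBB2* at -0.27.

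Other cyclins and CDKs were called in both directions, about as often as all genes tested were (23.9% higher and 22.7% lower). Of 13 other cyclins 3 were higher (6 without replicate 3) and 2 lower (1 without replicate 5), with log2 fold changes between -0.26 and 0.63 (median 0.04), and the changes that passed were led by *CCNYL1* (0.63), *CCNO* (0.27) and *CCNI* (-0.26). Of 14 other cyclin-dependent kinases 12 were tested, since *CDK3* (135 counts) and *CDK15* (50 counts) stayed under the limit, and 4 were higher (2 with library size only) and 3 lower, between -0.55 for *CDK20* and 0.52 for *CDK14* (median 0.03). *CDK19* was at -0.31. *CCNYL1* had the largest fitted change of these 25 genes, larger in size than those of *CCNE2*, *CDK2*, *CCNE1*, *CDK4* and *CCND3* and smaller than those of the other 4 G1 genes, differences that were not tested.

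The genes whose levels followed each of the 9 most closely were found from log2 CPM less the mean of the group, over the 10 samples, in each of which all genes were read from 1 library at 1 depth, among genes with a mean of at least 1 log2 CPM. The closest were *SHB* (Pearson r = 0.98) and *OGFRL1* (0.98) for *CCND1*, *FRMD6* (0.97) and *ADGRG6* (0.96) for *CDK6*, and *PLEKHJ1* (0.97) and *SEC14L2* (0.97) for *CCND2*. Since group means were removed, likeness in this measure does not bear on the change after irradiation. *SHB*, *OGFRL1*, *FRMD6* and *ADGRG6* rose (log2 fold change 0.88, 1.49, 1.37 and 1.56) as *CCND1* and *CDK6* did, whereas *PLEKHJ1* (0.01, adjusted p = 0.915 in edgeR) and *SEC14L2* (0.12, adjusted p = 0.143) did not pass. For *CCNE2* they were *EXOSC2* (0.99) and *PPIL1* (0.99), for *CCNE1* *PDCD5* (0.98) and *DCTPP1* (0.98), and for *CDC25A* *NIP7* (0.99) and *MTHFD1* (0.98). Of these, *NIP7* (log2 fold change 0.46, adjusted p = 0.0036 in edgeR) and *PPIL1* (0.33, adjusted p = 0.0393) rose, where *CDC25A* and *CCNE2* fell. *PDCD5* (0.27, adjusted p = 0.0307 in edgeR) rose as well, where *CCNE1* did not pass, and *EXOSC2*, *DCTPP1* and *MTHFD1* did not pass. *VDAC3* (0.98) and *RPA3* (0.97) were closest to *CDK2*, *HEBP1* (0.97) and *TEX30* (0.96) to *CDK4*, and *TRPV2* (0.95) and *SERGEF* (0.94) to *CCND3*. *VDAC3* (log2 fold change -0.18) and *RPA3* (-0.46) fell and *TRPV2* rose (0.47, adjusted p = 0.0122 in edgeR), while *HEBP1*, *TEX30* and *SERGEF* did not pass.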

How the data were processed

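The authors trimmed the reads, aligned them to GRCh38 with STAR and deposited raw counts per gene. The labels and the paper's methods name different library kits. The annotation release is not given in the sources used here. The 9 genes and the lists were chosen with earlier results of these data known. Of 61587 rows, 61369 matched a symbol of GENCODE on GRCh38.

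Differences were tested with edgeR 4.0.16 under R 4.3.3 (TMM, glmQLFit, glmQLFTest) on genes with at least 200 counts in all, with Benjamini-Hochberg adjustment and the replicate number as a block, as in the study's model. Samples with the same number tended to deviate together (correlation of deviations from group means 0.22 to 0.51 for the 5 pairs). Between control and irradiated samples of different number it was -0.35 to 0.32. Pair 2 (0.22) lay within that range and the other pairs above it. No libraries agreed within sampling noise (chi-square per gene at least 8.50). All 17 protein-coding genes wholly under opposite-strand exons had 0 counts, against 10.7% of 12742 without such overlap, so counting is treated as unstranded. Standard errors are the log2 fold change over the square root of F. Within-sample ratios used counts plus 0.5 and an exact 2-sided permutation test. Named list genes are the 3 largest called changes with 1 direction in 5 pairs, others being named for their role after their values were seen. Alternatives were DESeq2 1.42.0, limma-voom (limma 3.58.1), other scalings and filters, no block and left-out replicates. The tests were tested on simulated data. Protein sequences were not used here.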

Additional observations from a re-analysis of the deposited data

Results flagged for a closer look

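Among 38 sets of 5 values (the CPM of the 9 genes, the 8 ratios and 2 list means, each in controls and in irradiated samples), 2 held a sample whose gap to its neighbour passed Dixon's criterion, where chance gives 1.9, about 1 in 20. Both concern *CDK2*. Control replicate 1 was low, at 14.5 CPM where the other controls held 19.4 to 21.2, and irradiated replicate 3 was high, at 13.6 CPM against 12.1 to 12.4 in the other irradiated samples. Without replicate 1 or without replicate 3 *CDK2* was still called lower. What sets these samples apart was not tested.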

How the results depend on the processing

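Over all alternatives of the fit (other tools, scalings, filters and left-out replicates), *CCND1*, *CCND2*, *CDK6*, *CDK2* and *CDC25A* kept their direction and an adjusted p under 0.05, as did *CDK4* except against a 1.2-fold null. The log2 fold change of *CCND3* passed with library size only (-0.25) and with a minimum of 1 count (-0.21), and that of *CCNE1* with a minimum of 1 count (-0.40). With replicates left out in turn, *CCND3* ran from -0.22 to -0.11, *CCNE1* from -0.51 to -0.22 and *CCNE2* from -0.74 to -0.48. Without replicates 1 and 3, the only pairs in which these genes were not lower, *CCND3* (-0.32) and *CCNE1* (-0.75) passed. Against a 1.2-fold null 2 of the 9 genes were lower, *CCNE2* and *CDK4* being lost. Over 2-fold 0 were lower in edgeR, and no share of all genes is given at either cut. The cause of these changes was not tested.

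Without the replicate block 3640 genes were higher and 3366 lower, and the same 7 of the 9 genes were called. With library size only, 38.0% of 9503 called genes were higher, against 51.4% of 8857 with TMM. Pairing the ratios by a sign-flip test, whose smallest p is 0.0625, gave the same differences with none past the threshold (*CCND2*/*CCND1* 1.49, *CCND3*/*CCND1* -1.80, *CCND3*/*CCND2* -3.29, *CDK6*/*CDK4* 1.53, *CDK4*/*CDK2* 0.25, *CDC25A*/*CCNE1* -0.53, *CCNE2*/*CCNE1* -0.23, summed D-type over E-type 1.76). With a replicate left out these ran from 1.32 to 1.60 for *CCND2*/*CCND1*, -1.98 to -1.69 for *CCND3*/*CCND1*, -3.37 to -3.20 for *CCND3*/*CCND2*, 1.43 to 1.70 for *CDK6*/*CDK4*, 0.20 to 0.32 for *CDK4*/*CDK2*, -0.55 to -0.51 for *CDC25A*/*CCNE1* and 1.71 to 1.81 for summed D-type over E-type. Shares with the longest transcript as the length were 58.9% and 83.0% for *CCND1* and 24.2% and 47.8% for *CDK6* (control and irradiated), and with the exon length free of other genes, added after seeing the data, 22.1% and 44.9% for *CDK6* and 28.6% and 25.6% for *CCNE2* among E-type cyclins, where the whole length gave 20.2% and 17.8%. Counts on the 9 genes ran from 67 (*CCND2*, a control) to 202201 (*CCND1*) per sample, so that counting error is largest for *CCND2* in controls.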
